A study of Mus musculus with 24 samples.

Results

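The genes described here are 46 genes of the cell cycle and of DNA replication, chosen by symbol from the 35770 gene names measured in bone marrow-derived macrophages (BMDMs). All 46 were found, and all 46 passed the filter on low values (TPM above 1 in at least 3 of the 24 libraries). They were chosen by symbol and function and by no threshold on their values, but with earlier results of these data known. The study asked how medium conditioned by lung cancer cells of different KEAP1 pathway genotype, and the drug CDDO-Me, change macrophages. RNA from 24 libraries was measured, 3 in each of 8 groups. BMDMs had been grown with M-CSF from the marrow of C57BL/6 mice and then received control media or conditioned medium (CM) of LL2 (Lewis lung carcinoma of the mouse) cultures, at 75% of the medium that they were given. The LL2 cells were WT, KEAP1 KO or NRF2 KO, and had conditioned the medium for 48 h, whereas control media was the same culture medium kept without cancer cells. Vehicle or 100 nM CDDO-Me was added to each of the 4 media for 24 h. The edits were made by CRISPR in the cancer cells only, so the macrophages of all 8 groups had the same genotype, and CDDO-Me could act on the macrophages directly in each medium. Whether a KO line was 1 clone, and the age of the mice, are not given in the sources used here. The 3 libraries of a group came from independent samples, but nothing says that these came from different mice, so p-values measure only the spread between these samples, which may be technical. For each gene, 1 spread was estimated over all 8 groups, so a wide spread in 1 group enters the p-values of every comparison.

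Cells prepare for DNA synthesis in G1 by loading the MCM helicase at origins with the help of Cdc6 and Cdt1, then copy DNA in S phase with PCNA as the sliding clamp and with deoxynucleotides supplied by ribonucleotide reductase and thymidylate synthase. Cyclins with their kinases drive each step, E2F factors switch on the genes for S phase, and MYBL2 and FOXM1 switch on those for mitosis, many of which carry a cell cycle homology region (CHR) and CCAAT boxes near their start. M-CSF drives division of bone marrow macrophage precursors, and CDDO-Me (bardoxolone methyl) is a synthetic triterpenoid that binds KEAP1 and so stabilises NRF2.

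RefSeq promoters on GRCm38.p6 were found for 37 of the 46 genes, and 4 of these genes had 2 promoters. Windows of 150 bases were read, from 120 bases before to 30 bases after the start. On either strand, a CHR (TTTGAA or TTTAAA) was present for 19 of 37 genes (51.4%) and in 13.6% of all 32851 promoters. The CCAAT box was present for 25 genes (67.6%) against 24% of promoters, and both motifs together for 16 genes (43.2%) against 3.36%. An E2F site (TTTGGCGC, TTTCCCGC or TTTCGCGC) was present for 3 genes, Mcm3, Mcm6 and Mcm7 (8.11% against 0.992%). In 1 place in these windows a match of 1 motif overlapped a match of another. A gene was counted if any of its promoters had a match, while the background counts single promoters, which can raise the shares of genes. A match is a description of letters and not of a bound site. The windows of 6 genes to which the results below refer are shown 5′ to 3′ on the strand of the gene, with CHR and CCAAT matches in capitals and with the reverse complement in capitals where the match was on the other strand. They are Ccnb2 at chr9:70421525-70421674 (minus strand), Cdk1 at chr10:69352883-69353032 (minus strand), Rrm2 at chr12:24708134-24708283 (plus strand), Top2a at chr11:99024160-99024309 (minus strand), Mcm5 at chr8:75109389-75109538 (plus strand) and Birc5 at chr11:117849117-117849266 (plus strand).
Ccnb2: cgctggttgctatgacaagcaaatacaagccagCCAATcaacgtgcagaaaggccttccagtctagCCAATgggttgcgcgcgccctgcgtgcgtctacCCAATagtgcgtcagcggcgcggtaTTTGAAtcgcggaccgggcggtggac
Cdk1: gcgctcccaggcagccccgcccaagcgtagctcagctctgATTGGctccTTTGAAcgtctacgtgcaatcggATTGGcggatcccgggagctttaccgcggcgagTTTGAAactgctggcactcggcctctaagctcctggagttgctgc
Rrm2: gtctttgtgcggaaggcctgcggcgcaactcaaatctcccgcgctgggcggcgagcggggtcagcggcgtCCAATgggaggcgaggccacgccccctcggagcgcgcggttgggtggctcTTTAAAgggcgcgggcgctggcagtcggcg
Top2a: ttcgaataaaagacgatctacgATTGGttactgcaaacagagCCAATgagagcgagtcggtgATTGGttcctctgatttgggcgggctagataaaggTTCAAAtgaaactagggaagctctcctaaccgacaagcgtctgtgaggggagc
Mcm5: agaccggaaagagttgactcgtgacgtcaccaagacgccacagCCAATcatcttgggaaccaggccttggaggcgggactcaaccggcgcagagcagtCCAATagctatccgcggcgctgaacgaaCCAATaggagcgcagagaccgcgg
Birc5: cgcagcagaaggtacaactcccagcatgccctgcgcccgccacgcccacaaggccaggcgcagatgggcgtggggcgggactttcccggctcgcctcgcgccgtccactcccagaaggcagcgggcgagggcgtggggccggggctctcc
Cdk1 had 2 CHR and 2 CCAAT matches, and Ccnb2 and Top2a each had 1 CHR and 3 CCAAT matches. Mcm5 had 3 CCAAT matches and no CHR, Rrm2 had 1 of each, and Birc5 had no match of any motif searched. Ccna2, Ccne2, Ccnd1, Aurkb, Kif20a, Tpx2, Mcm4, Gins2 and Foxm1 had no promoter entry.

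All values are TPM, a unit that gives the share of transcripts from a gene after allowance for its length, so the values do not keep the number of reads behind them. Between 15702 and 18993 genes were above 0 per library, with the fewest in NRF2 KO/vehicle replicate 3 and NRF2 KO/CDDO-Me replicate 3. NRF2 target genes checked the treatment, with 7, 6, 7 and 7 of 7 higher with CDDO-Me in control media and in CM of WT, KEAP1 KO and NRF2 KO cells. The 8 macrophage markers were above 0 in every group and summed to 15284 to 38842 TPM per library. The 10 fibroblast and stromal markers summed to 179 to 2210 TPM, 6 lymphocyte markers to at most 1.44 TPM, 5 epithelial markers to 0.214 to 9.23 TPM, 4 endothelial markers to 4.18 to 66.6 TPM and 6 myeloid progenitor markers to 0.935 to 14.9 TPM. The 6 monocyte and neutrophil markers summed to 10.4 to 116 TPM. In each of the 8 groups replicate 3 had the lowest stromal sum, and a fit without the replicate 3 libraries, chosen after seeing the data, is given where it moved a count.

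In media/vehicle BMDMs the mean level of the 46 genes ran from 1.52 TPM for Cenpf, a kinetochore protein of dividing cells, to 431 TPM for Pcna, with a median of 17.0 TPM. Not 1 of the genes was listed at 0 in any library, and 11 were under 1 TPM in at least 1 library. On the scale used for the tests, log2 of the scaled TPM plus 1, the median of the 46 genes was 4.06, 4.06 and 4.30 in the 3 media/vehicle libraries, 4.34, 4.59 and 3.97 with WT CM, 4.80, 4.92 and 4.51 with KEAP1 KO CM and 4.27, 4.47 and 4.50 with NRF2 KO CM. With CDDO-Me it was 3.38, 3.48 and 3.36 in control media, 2.22, 2.64 and 2.62 with WT CM, 2.46, 2.88 and 2.76 with KEAP1 KO CM and 3.43, 3.50 and 2.84 with NRF2 KO CM. In each of the 4 media every CDDO-Me library lay below every vehicle library. Among vehicle groups KEAP1 KO/vehicle had the highest mean for 39 of the 46 genes and media/vehicle the lowest for 32. Among CDDO-Me groups media/CDDO-Me was highest for 29 genes and WT/CDDO-Me lowest for 28, while KEAP1 KO/CDDO-Me was highest for 3 and lowest for 6. In bulk RNA, fewer dividing cells and less of these RNAs per cell cannot be told apart.

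**Figure D1:**
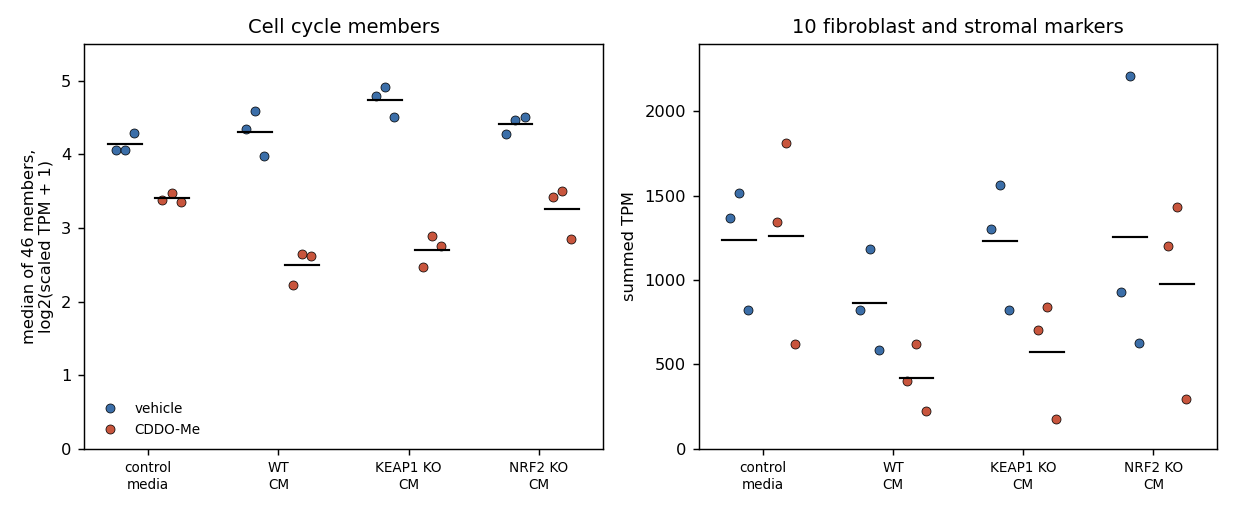
The left panel plots, for each of the 24 libraries, the median of the 46 genes on the log2(scaled TPM + 1) scale, and the right panel plots the summed TPM of 10 fibroblast and stromal markers, by medium and with vehicle and CDDO-Me in different colours. The CDDO-Me medians lie between 2.22 and 3.50 and the vehicle medians between 3.97 and 4.92. Stromal sums overlap in every medium, but only from 584 to 624 TPM in WT CM and from 824 to 841 TPM in KEAP1 KO CM. Median stromal sums with vehicle and CDDO-Me are 821 and 403 TPM in WT CM and 1301 and 701 TPM in KEAP1 KO CM. They are 1370 and 1345 TPM in control media and 931 and 1205 TPM in NRF2 KO CM.

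With CDDO-Me, 44 of the 46 genes were lower in at least 1 medium and 11 were lower in all 4, namely Mcm3, Mcm5 and Mcm6 of the helicase, Tk1 of thymidine salvage, Ccna2 of the cyclins, Aurkb, Birc5 and Bub1b of the mitotic checkpoint, and Kif11, Kif23 and Mki67. The control media calls of 6 of these 11 (Mcm5, Ccna2, Aurkb, Bub1b, Kif11 and Mki67) were each lost when some single library was left out, as was that of Aurkb in WT CM. In NRF2 KO CM the calls of all 11 were lost when only the libraries of that medium were fitted. Shares over all genes tested are not given for 1 or more media or for all 4, so the counts of 44 and 11 have no background beside them. In WT CM 38 genes were lower and 1, the CDK inhibitor Cdkn1a, was higher. In KEAP1 KO CM 43 were lower and Cdkn1a was again higher, and in NRF2 KO CM 34 were lower and Cdkn1a was higher. In control media 12 were lower and 0 higher. Over all 13661 genes tested, limma called 13.4% lower and 14.4% higher in WT CM, 14.3% lower and 14.4% higher in KEAP1 KO CM, 4.74% lower and 4.87% higher in NRF2 KO CM, and 2.8% lower in control media. The median log2 difference of the 46 genes was -1.56, -1.78, -1.05 and -0.64 in WT CM, KEAP1 KO CM, NRF2 KO CM and control media, beside -0.012, -0.020, 0.016 and -0.0028 over all genes tested. A gene was called where limma's moderated test had a Benjamini-Hochberg adjusted p under 0.05 over all genes tested. Differences are on the log2(scaled TPM + 1) scale, which understates the change of genes near 1 TPM. In WT CM the vehicle and CDDO-Me groups did not overlap for 40 of the 46 genes and for 50.5% of all genes tested. With KEAP1 KO CM this held for 44 of the 46 and 49.3% of all genes. For NRF2 KO CM the values were 33 of the 46 and 17.6%. Lack of overlap was therefore common among all genes in WT CM and in KEAP1 KO CM, and says little there for a single gene.

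In control media, 44 of the 46 differences were negative, 31 genes had an unadjusted p under 0.05 (16% of all genes tested did), and the groups did not overlap for 37 genes (31.1% of all genes tested did not overlap). The count of 12 was 6 with no filter on low values and 5 to 8 with any 1 of the 6 libraries left out, and 5 of the 12 calls were kept whichever library that was. With the replicate number as a block, for which the same-numbered libraries of these groups were paired by the check on deviations, 20 genes were lower and 1 higher in control media. That block fit called 10.7% of all genes tested there. The 9 genes gained were Mcm2, Mcm4, Cdt1, Tyms, Ccnd1, Bub1, E2f1 and Foxm1, with adjusted p of 0.0423, 0.0277, 0.0261, 0.0393, 0.0158, 0.0421, 0.037 and 0.0244, and Cdkn1a, with 0.00447. In NRF2 KO CM, also paired, the block added Rrm1, Ccnd1, Cdc20 and Kif20a, with adjusted p of 0.0238, 0.00241, 0.0221 and 0.0173. Whichever single library was left out, 36 of 39 calls were kept in WT CM (all but Aurkb, Cdkn1a and Gins2), 39 of 44 in KEAP1 KO CM (all but Ccne1, Cdc6, Cenpe, E2f1 and E2f8) and 24 of 35 in NRF2 KO CM (all but Aurka, Bub1, Cdc6, Cdkn1a, Cdt1, Cenpa, E2f8, Mcm2, Mcm7, Pcna and Prc1). In control media and in NRF2 KO CM each of the 6 libraries took 4 to 7 calls with it when left out. Without the pair of NRF2 KO libraries with the fewest genes above 0, 27 genes were lower and 1 higher in control media, and 23 lower and 1 higher in NRF2 KO CM. In that fit 14.9% and 9.55% of all genes tested were called in these media. Fitted on the 6 NRF2 KO CM libraries alone, limma called 0 of the 46 genes in NRF2 KO CM. Without scaling of the libraries, the share of all called genes that were higher was 39.1% in WT CM and 34.6% in KEAP1 KO CM, against 51.8% and 50.2% with scaling, and the median log2 difference of all genes was -0.12 and -0.17. Fibroblast and stromal marker sums, given as the lowest, median and highest library, were 584, 821 and 1185 TPM with vehicle and 225, 403 and 624 TPM with CDDO-Me in WT CM. With vehicle and then CDDO-Me they were 824, 1301 and 1562 against 179, 701 and 841 TPM in KEAP1 KO CM, 627, 931 and 2210 against 294, 1205 and 1434 TPM in NRF2 KO CM, and 820, 1370 and 1518 against 624, 1345 and 1813 TPM in control media. Of these 10 markers, none of which was at 0 in every library of a group, 1 was lower with CDDO-Me in WT CM, 2 in KEAP1 KO CM and 0 in NRF2 KO CM and control media. Myeloid progenitor marker sums, with Ctsg at 0 in 3 groups, had medians of 6.73 TPM in media/vehicle and 4.17 in media/CDDO-Me, 5.11 and 1.19 in WT CM, 4.83 and 2.11 in KEAP1 KO CM, and 9.42 and 3.40 in NRF2 KO CM. Of these 6 markers 2 were tested, and Kit was lower with CDDO-Me in control media, at -1.23, and in NRF2 KO CM, at -1.63, Cd34 was lower in WT CM, at -1.11, and neither was called in KEAP1 KO CM. Endothelial marker sums (Cdh5, Kdr, Pecam1 and Tek, none at 0 in every library of a group), as lowest, median and highest, were 7.51, 8.77 and 10.3 TPM with vehicle against 5.66, 6.12 and 13.3 TPM with CDDO-Me in control media. They were 14.2, 16.4 and 26.1 against 4.18, 4.79 and 5.14 TPM in WT CM, 17.3, 17.96 and 29.9 against 5.31, 6.36 and 17.4 TPM in KEAP1 KO CM, and 7.77, 12.3 and 66.6 against 9.82, 11.3 and 22.4 TPM in NRF2 KO CM. Of the 3 endothelial markers tested, Kdr was lower with CDDO-Me in control media, at -1.10, and in NRF2 KO CM, at -1.11, and Pecam1 was lower in WT CM, at -1.87, and in KEAP1 KO CM, at -1.60. The macrophage markers had 1 of 8 higher and 1 lower with CDDO-Me in control media, 2 and 1 in WT CM and in KEAP1 KO CM, and 2 and 2 in NRF2 KO CM. In control media these were Itgam at 0.68 and Fcgr1 at -1.17. Fcgr1, Mertk and Cd68 differed by 3.35, 0.93 and -1.41 in WT CM and by 3.50, 0.90 and -1.31 in KEAP1 KO CM. In NRF2 KO CM, Itgam and Lyz2 were higher, at 0.61 and 0.52, and Fcgr1 and Cd68 lower, at -1.10 and -0.61. Monocyte and neutrophil marker sums, with none of the 6 markers at 0 in every library of a group, had medians of 27.9 and 36.3 TPM with vehicle and CDDO-Me in control media, 13.3 and 76.9 in WT CM, 22.6 and 90.8 in KEAP1 KO CM, and 20.8 and 54.9 in NRF2 KO CM, and the CDDO-Me sums lay above the vehicle sums in each medium. Of these 6, Ly6c2 and S100a8 were higher with CDDO-Me in WT CM, by 3.88 and 2.19, and in KEAP1 KO CM, by 4.02 and 2.54, S100a8 was higher in NRF2 KO CM, by 1.79, and none passed in control media. Epithelial marker sums had medians of 1.96 and 0.693 TPM in control media, 4.99 and 0.359 in WT CM, 9.13 and 1.85 in KEAP1 KO CM, and 2.38 and 1.27 in NRF2 KO CM. Of the 5 epithelial markers 2 were tested, and both, Cdh1 and Krt19, were lower in WT CM, at -2.16 and -0.90, and in KEAP1 KO CM, at -2.40 and -1.23, with neither called in the other media. Krt8 and Krt18 were at 0 in control media, Epcam in KEAP1 KO CM, and Epcam and Cdh1 in NRF2 KO/vehicle. Which cells gave these marker RNAs, and the part of any such cells in the differences, was not tested.

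**Figure D2:**
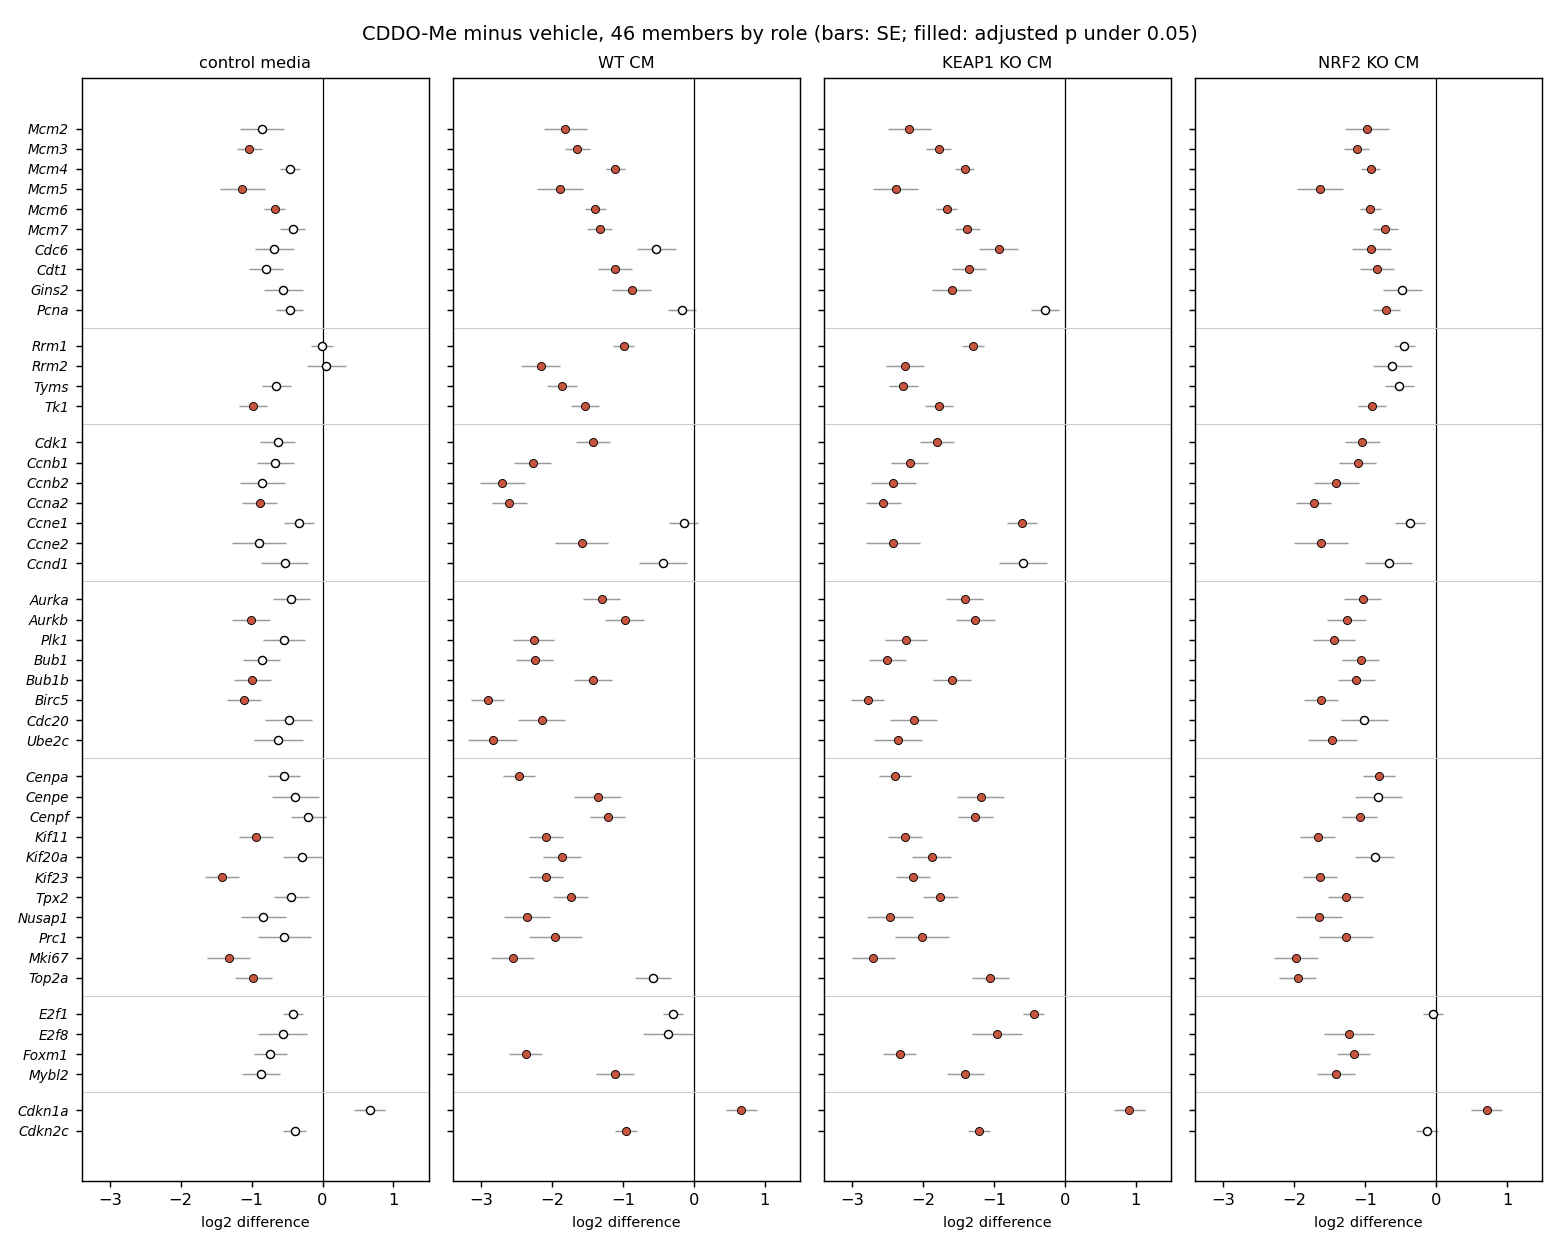
Each panel plots 1 medium and each row 1 of the 46 genes, grouped by role, with the log2 difference of CDDO-Me from vehicle on the horizontal axis, its standard error as a bar, and filled points for genes with an adjusted p under 0.05. Filled points are 12 in control media, 39 in WT CM, 44 in KEAP1 KO CM and 35 in NRF2 KO CM, and Cdkn1a is the only filled point above 0.

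Of the 10 genes for origin licensing and the replication fork, 8 were lower with CDDO-Me in WT CM, 9 in KEAP1 KO CM, 9 in NRF2 KO CM and 3 in control media. Mcm5, a subunit of the helicase whose promoter window is shown above, was at 24.6, 24.9 and 26.5 TPM in control media, 31.2, 37.4 and 23.4 in WT CM, 44.2, 55 and 29.6 in KEAP1 KO CM and 28.4, 31.4 and 13 in NRF2 KO CM with vehicle. With CDDO-Me it was at 11.4, 11.1 and 10.1 TPM in control media, 5.72, 7.94 and 6.81 in WT CM, 5.6, 7.05 and 6.36 in KEAP1 KO CM and 9.61, 10.2 and 2.49 in NRF2 KO CM. The groups did not overlap in any medium, and the lowest value of the series was in NRF2 KO/CDDO-Me replicate 3. Its difference was -1.13 (SE 0.32, adjusted p = 0.0414) in control media, -1.89 (SE 0.32, adjusted p = 0.00012) in WT CM, -2.39 (SE 0.32, adjusted p = 7.65e-06) in KEAP1 KO CM and -1.63 (SE 0.32, adjusted p = 0.002) in NRF2 KO CM. Mcm2, another subunit of the same ring, was at 17.4, 16.8 and 18.3 TPM in control media, 24.8, 29.6 and 17.7 in WT CM, 31.2, 35.6 and 22.7 in KEAP1 KO CM and 20.1, 23.5 and 6.81 in NRF2 KO CM with vehicle. Its CDDO-Me values were 8.64, 10.03 and 8.69 TPM in control media, 4.53, 6.69 and 5.4 in WT CM, 4.1, 5.87 and 5.1 in KEAP1 KO CM and 9.47, 8.9 and 3.82 in NRF2 KO CM. NRF2 KO/vehicle replicate 3, at 6.81 TPM, fell among the CDDO-Me libraries of that medium, and in the other media the groups did not overlap. The difference in Mcm2 was -1.81 (SE 0.30, adjusted p = 0.000106) in WT CM, -2.19 (SE 0.30, adjusted p = 1.12e-05) in KEAP1 KO CM and -0.97 (SE 0.30, adjusted p = 0.0498) in NRF2 KO CM, and -0.85 (SE 0.30, adjusted p = 0.124) in control media. The call in NRF2 KO CM was lost without NRF2 KO/CDDO-Me replicate 2 or 3 or NRF2 KO/vehicle replicate 1 or 2 (adjusted p of 0.059 to 0.195). The Mcm5 call in control media was lost without any 1 of its 6 libraries.

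Cdc6, which loads the helicase, was low throughout, at 3.08, 3.32 and 3.63 TPM in control media, 4.87, 5.35 and 2.68 in WT CM, 7.07, 8.8 and 4.32 in KEAP1 KO CM and 3.44, 5.41 and 1.88 in NRF2 KO CM with vehicle. CDDO-Me values were 2.14, 1.65 and 1.3 TPM in control media, 2.19, 2.05 and 2.84 in WT CM, 3.6, 2.64 and 1.75 in KEAP1 KO CM and 1.98, 1.41 and 0.616 in NRF2 KO CM. The groups overlapped in WT CM, and in NRF2 KO CM before scaling. It was lower in KEAP1 KO CM, at -0.93 (SE 0.28, adjusted p = 0.0139), and in NRF2 KO CM, at -0.91 (SE 0.28, adjusted p = 0.0418), while the difference in WT CM was -0.53 (SE 0.28, adjusted p = 0.183). The KEAP1 KO CM call of Cdc6 was lost without KEAP1 KO/CDDO-Me replicate 3 or KEAP1 KO/vehicle replicate 1 or 2 (adjusted p of 0.0518 to 0.0816). Its NRF2 KO CM call was lost without NRF2 KO/CDDO-Me replicate 2 or 3 or NRF2 KO/vehicle replicate 1 or 2 (adjusted p of 0.0841 to 0.159). Cdt1, its partner in loading, was at 32.5, 26.4 and 29.8 TPM in control media, 32.8, 30.4 and 24.9 in WT CM, 32.9, 38 and 25.7 in KEAP1 KO CM and 29.9, 27.4 and 10.7 in NRF2 KO CM with vehicle. After CDDO-Me it stood at 15.1, 17.2 and 16.8 TPM in control media, 11.3, 12.3 and 12 in WT CM, 9.59, 11.3 and 10.6 in KEAP1 KO CM and 13.7, 13 and 7.33 in NRF2 KO CM. All vehicle libraries were above all CDDO-Me libraries except in NRF2 KO CM, where replicate 3 with vehicle was again the low one. Its difference was -1.11 in WT CM, -1.35 in KEAP1 KO CM and -0.83 in NRF2 KO CM, each with an adjusted p under 0.05, and -0.79 (SE 0.24, adjusted p = 0.0587) in control media. In NRF2 KO CM the Cdt1 call was lost without NRF2 KO/CDDO-Me replicate 2 or 3 or NRF2 KO/vehicle replicate 1 or 2 (adjusted p of 0.0502 to 0.147). Pcna, the clamp, had the highest level of the replication genes, at 382, 427 and 484 TPM in control media, 388, 390.5 and 422 in WT CM, 360.1, 398 and 307 in KEAP1 KO CM and 365, 345 and 344 in NRF2 KO CM with vehicle. With CDDO-Me its level was 278, 276 and 375 TPM in control media, 271, 303 and 422 in WT CM, 206, 245 and 343 in KEAP1 KO CM and 206, 205 and 220.4 in NRF2 KO CM. It was lower in NRF2 KO CM, with a difference of -0.70 (SE 0.19, adjusted p = 0.0257), where the groups did not overlap, and this call was lost without NRF2 KO/CDDO-Me replicate 1 or 2 or NRF2 KO/vehicle replicate 1 or 3 (adjusted p of 0.0547 to 0.0901). The difference was -0.47 (SE 0.19, adjusted p = 0.216) in control media and -0.28 (SE 0.19, adjusted p = 0.341) in KEAP1 KO CM. In WT CM the difference was -0.16 (SE 0.19, adjusted p = 0.63), with a 95% interval of -0.57 to 0.25, and the groups overlapped. Whether the Pcna response differs between NRF2 KO CM and WT CM was tested as an interaction, and that difference was 0.54 (SE 0.28, adjusted p = 0.253). The processed copies Pcna-ps1 and Pcna-ps2, which could take some reads of Pcna, reached at most 0 and 0.626 TPM. The other 5 genes of this role, Mcm3, Mcm4, Mcm6, Mcm7 and Gins2, had differences from -1.64 (Mcm3) to -0.87 (Gins2) in WT CM, from -1.78 (Mcm3) to -1.38 (Mcm7) in KEAP1 KO CM, from -1.12 (Mcm3) to -0.48 (Gins2) in NRF2 KO CM and from -1.03 (Mcm3) to -0.42 (Mcm7) in control media.

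All 4 nucleotide supply genes were lower with CDDO-Me in WT CM and KEAP1 KO CM, and 1 of them, Tk1, in NRF2 KO CM and control media. Rrm2, the small subunit of ribonucleotide reductase, was at 25.8, 30.4 and 40.6 TPM in control media, 36.2, 38.9 and 26.1 in WT CM, 49.8, 59.6 and 43.7 in KEAP1 KO CM and 31.9, 38.7 and 28.5 in NRF2 KO CM with vehicle. CDDO-Me libraries had values of 35.8, 37.2 and 25.9 TPM in control media, 4.87, 7.36 and 6.29 in WT CM, 7.58, 9.05 and 9.49 in KEAP1 KO CM and 27.7, 31.9 and 9.63 in NRF2 KO CM. In WT CM and KEAP1 KO CM every CDDO-Me library was under every vehicle library, and in control media and NRF2 KO CM the groups overlapped. The difference was -2.16 (SE 0.27, adjusted p = 3.46e-06) in WT CM and -2.26 (SE 0.27, adjusted p = 1.97e-06) in KEAP1 KO CM, against 0.05 (SE 0.27, adjusted p = 0.994) in control media and -0.62 (SE 0.27, adjusted p = 0.193) in NRF2 KO CM. Without the 2 NRF2 KO libraries with few genes, the Rrm2 difference in NRF2 KO CM was -0.20 (SE 0.21, adjusted p = 0.682). Rrm1, the large subunit, was at 30.002, 34.4 and 37.4 TPM in control media, 36.7, 46.2 and 30.2 in WT CM, 51.3, 56.5 and 44.3 in KEAP1 KO CM and 42.7, 44.4 and 45.2 in NRF2 KO CM with vehicle. CDDO-Me libraries had 33.9, 38.8 and 27.7 TPM in control media, 15.8, 18.8 and 15.5 in WT CM, 15.5, 20.9 and 17.1 in KEAP1 KO CM and 31.4, 41 and 23.8 in NRF2 KO CM. Like Rrm2, it overlapped between groups in control media, and it was separated in WT CM and KEAP1 KO CM. Its difference was -0.99 (SE 0.15, adjusted p = 3.84e-05) in WT CM, -1.30 (SE 0.15, adjusted p = 1.39e-06) in KEAP1 KO CM, -0.01 (SE 0.15, adjusted p = 1) in control media and -0.45 (SE 0.15, adjusted p = 0.0731) in NRF2 KO CM, where it passed with the block (adjusted p = 0.0238).

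Tyms, thymidylate synthase, was at 14.2, 14.9 and 12 TPM in control media, 17.2, 18.5 and 13.5 in WT CM, 26.4, 24.6 and 21 in KEAP1 KO CM and 12.7, 21.7 and 14.5 in NRF2 KO CM with vehicle. The values with CDDO-Me were 6.09, 9.73 and 9.26 TPM in control media, 4.0, 3.65 and 2.75 in WT CM, 4.2, 4.78 and 2.34 in KEAP1 KO CM and 9.02, 11.1 and 11.6 in NRF2 KO CM. The 3 WT/CDDO-Me libraries were all under 5 TPM, and the 3 NRF2 KO/CDDO-Me libraries were all above 9 TPM. The difference in Tyms was -1.86 (SE 0.21, adjusted p = 7.2e-07) in WT CM, -2.28 (SE 0.21, adjusted p = 4.78e-08) in KEAP1 KO CM, -0.52 (SE 0.21, adjusted p = 0.141) in NRF2 KO CM and -0.65 (SE 0.21, adjusted p = 0.074) in control media. Tk1, thymidine kinase of the salvage route, was at 35.4, 39 and 46.9 TPM in control media, 39.5, 46.7 and 33.6 in WT CM, 55.7, 60.5 and 49.5 in KEAP1 KO CM and 41.4, 47.4 and 20.8 in NRF2 KO CM with vehicle. Levels with CDDO-Me were 20.2, 17.9 and 20.5 TPM in control media, 11, 12.9 and 12 in WT CM, 12.2, 14.4 and 14.2 in KEAP1 KO CM and 18.6, 22.4 and 13 in NRF2 KO CM. In TPM the groups overlapped in NRF2 KO CM through replicate 3 with vehicle and in no other medium. Its difference was -0.99 in control media, -1.53 in WT CM, -1.78 in KEAP1 KO CM and -0.90 in NRF2 KO CM, each with an adjusted p under 0.05. A processed copy, Tyms-ps, reached at most 0.155 TPM.

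**Figure D3:**
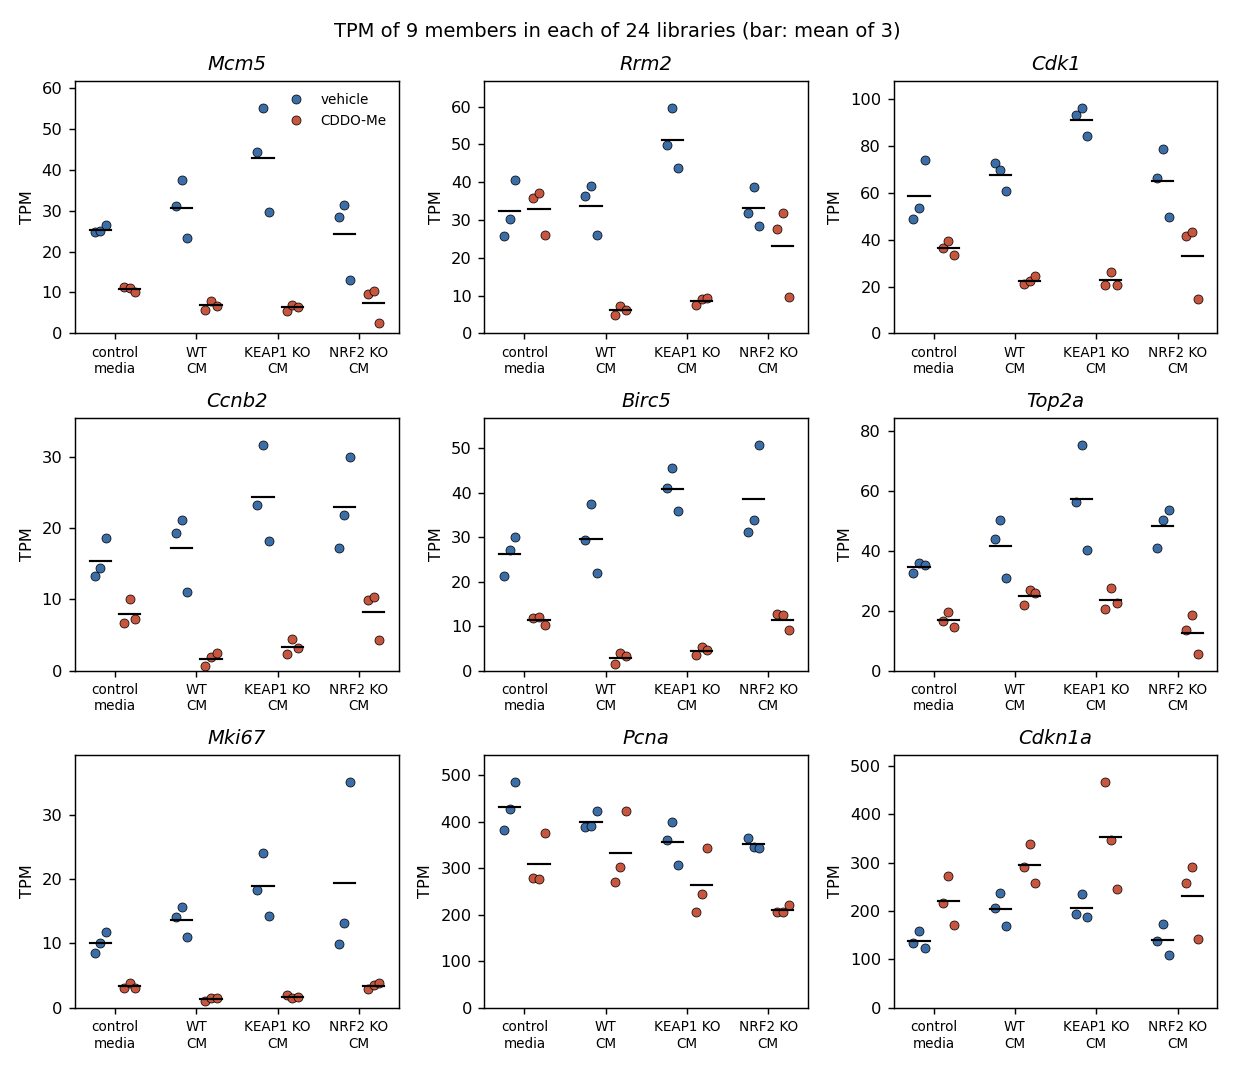
TPM of 9 of the genes are plotted for each of the 24 libraries, with vehicle and CDDO-Me points side by side in each medium and a bar at the mean of 3. For Rrm2 the WT/CDDO-Me points lie between 4.87 and 7.36 TPM and the media/CDDO-Me points between 25.9 and 37.2 TPM.

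Among the 7 cyclins and CDK genes, 5 were lower with CDDO-Me in WT CM, 6 in KEAP1 KO CM, 5 in NRF2 KO CM and 1 in control media. Ccnb2, a cyclin of mitosis, was at 13.2, 14.4 and 18.6 TPM in control media, 19.3, 21.1 and 11.1 in WT CM, 23.2, 31.6 and 18.1 in KEAP1 KO CM and 17.3, 21.8 and 29.9 in NRF2 KO CM with vehicle. The CDDO-Me libraries held 6.71, 10.1 and 7.23 TPM in control media, 0.659, 1.96 and 2.42 in WT CM, 2.28, 4.37 and 3.16 in KEAP1 KO CM and 9.98, 10.3 and 4.23 in NRF2 KO CM. The groups did not overlap in any medium, and the 3 WT/CDDO-Me libraries were among the 4 lowest of the series. The difference was -2.70 (SE 0.32, adjusted p = 1.49e-06) in WT CM, -2.42 (SE 0.32, adjusted p = 5.71e-06) in KEAP1 KO CM, -1.41 (SE 0.32, adjusted p = 0.0064) in NRF2 KO CM and -0.85 (SE 0.32, adjusted p = 0.148) in control media. Its processed copy Ccnb2-ps reached at most 3.49 TPM, so some reads may be divided between them. Ccna2, a cyclin of S phase and G2, was at 14, 16.3 and 19 TPM in control media, 19, 24.9 and 16 in WT CM, 27.5, 34.9 and 21.8 in KEAP1 KO CM and 19.1, 23 and 40.7 in NRF2 KO CM with vehicle. CDDO-Me brought values of 8.16, 9.26 and 7.35 TPM in control media, 1.52, 3.02 and 2.27 in WT CM, 2.6, 3.97 and 3.7 in KEAP1 KO CM and 8.0, 8.01 and 5.4 in NRF2 KO CM. NRF2 KO/vehicle replicate 3, at 40.7 TPM, was the highest library, although the same library had the lowest vehicle level of Mcm2 and Mcm5. Its difference was -0.89 in control media, -2.60 in WT CM, -2.56 in KEAP1 KO CM and -1.73 in NRF2 KO CM, each with an adjusted p under 0.05 and with no overlap. Cdk1, the kinase that pairs with both, was at 48.9, 53.5 and 74.1 TPM in control media, 72.6, 70.03 and 61 in WT CM, 93.3, 96.3 and 84.2 in KEAP1 KO CM and 66.3, 78.7 and 49.7 in NRF2 KO CM with vehicle. Its levels with CDDO-Me were 36.7, 39.4 and 33.5 TPM in control media, 21.1, 22.3 and 24.4 in WT CM, 20.9, 26.3 and 20.8 in KEAP1 KO CM and 41.4, 43.2 and 14.5 in NRF2 KO CM. No vehicle library was as low as a CDDO-Me library of its medium, and the difference was -1.42 (SE 0.24, adjusted p = 0.000134) in WT CM, -1.80 (SE 0.24, adjusted p = 8.22e-06) in KEAP1 KO CM, -1.04 (SE 0.24, adjusted p = 0.00828) in NRF2 KO CM and -0.63 (SE 0.24, adjusted p = 0.163) in control media.

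The cyclins of G1 and of entry into S phase were less uniform. Ccne2 was at 6.6, 7.13 and 7.05 TPM in control media, 6.41, 10.1 and 3.92 in WT CM, 13.3, 16.9 and 8.56 in KEAP1 KO CM and 5.19, 8.99 and 23.8 in NRF2 KO CM with vehicle. In the CDDO-Me libraries it was at 3.65, 2.73 and 3.25 TPM in control media, 1.25, 1.84 and 1.02 in WT CM, 0.98, 1.31 and 1.67 in KEAP1 KO CM and 2.6, 3.95 and 1.77 in NRF2 KO CM. Every vehicle library was above every CDDO-Me library of its medium, with NRF2 KO/vehicle replicate 3 the highest. The difference was -1.58 (SE 0.38, adjusted p = 0.00288) in WT CM, -2.43 (SE 0.38, adjusted p = 3.96e-05) in KEAP1 KO CM, -1.62 (SE 0.38, adjusted p = 0.00758) in NRF2 KO CM and -0.90 (SE 0.38, adjusted p = 0.216) in control media. Ccnd1, the D-type cyclin that growth factors induce, was at 81.3, 78.3 and 66.8 TPM in control media, 95.7, 89.2 and 53 in WT CM, 99.2, 109.9 and 55.3 in KEAP1 KO CM and 96.4, 96.2 and 56.8 in NRF2 KO CM with vehicle. In CDDO-Me libraries the values were 59.1, 59.3 and 37.7 TPM in control media, 56.4, 73.4 and 33.4 in WT CM, 51.8, 72.5 and 32.3 in KEAP1 KO CM and 62.9, 67.2 and 28.2 in NRF2 KO CM. In each group replicate 3 was the lowest, and the groups overlapped in all 3 CM. Without a block Ccnd1 did not pass in any medium, with differences of -0.53 (SE 0.34, adjusted p = 0.535) in control media, -0.43 (SE 0.34, adjusted p = 0.407) in WT CM, -0.59 (SE 0.34, adjusted p = 0.219) in KEAP1 KO CM and -0.67 (SE 0.34, adjusted p = 0.27) in NRF2 KO CM. In each medium all 3 CDDO-Me libraries were below the vehicle library of the same number. With the replicate number as a block, in the 2 comparisons that met the check on deviations, Ccnd1 was lower in control media (adjusted p = 0.0158) and in NRF2 KO CM (adjusted p = 0.00241). Ccne1, the other E-type cyclin, was lower in KEAP1 KO CM, at -0.61 (SE 0.21, adjusted p = 0.0342), and differed by -0.14 (SE 0.21, adjusted p = 0.706) in WT CM. Its call was lost without KEAP1 KO/CDDO-Me replicate 1 or 2 or KEAP1 KO/vehicle replicate 1 or 2 (adjusted p of 0.0778 to 0.146). Ccnb1, the partner of Cdk1 at mitotic entry, had differences of -2.27 in WT CM, -2.19 in KEAP1 KO CM and -1.11 in NRF2 KO CM, all past the threshold, and -0.66 (SE 0.26, adjusted p = 0.18) in control media.

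All 8 mitotic kinase, checkpoint and APC/C genes were lower with CDDO-Me in WT CM and KEAP1 KO CM, 7 in NRF2 KO CM and 3 in control media. Birc5 (survivin), a subunit of the chromosomal passenger complex, was at 21.3, 27.2 and 30.02 TPM in control media, 29.5, 37.5 and 22 in WT CM, 41, 45.6 and 35.9 in KEAP1 KO CM and 31.3, 33.9 and 50.7 in NRF2 KO CM with vehicle. Values after CDDO-Me were 11.8, 12.1 and 10.2 TPM in control media, 1.5, 3.94 and 3.26 in WT CM, 3.52, 5.28 and 4.73 in KEAP1 KO CM and 12.8, 12.4 and 9.06 in NRF2 KO CM. The groups were apart in all 4 media. Its difference of -2.91 (SE 0.24, adjusted p = 9.53e-09) in WT CM stood beside -2.78 (SE 0.24, adjusted p = 1.79e-08) in KEAP1 KO CM, -1.62 (SE 0.24, adjusted p = 0.000106) in NRF2 KO CM and -1.11 (SE 0.24, adjusted p = 0.00573) in control media. Its partner kinase Aurkb was at 15.6, 14 and 16.5 TPM in control media, 20.7, 24.7 and 13.9 in WT CM, 28.7, 33.7 and 21.1 in KEAP1 KO CM and 16.8, 22.6 and 9.84 in NRF2 KO CM with vehicle. Aurkb with CDDO-Me was at 8.22, 7.76 and 5.32 TPM in control media, 7.39, 8.09 and 10.2 in WT CM, 8.16, 11.4 and 9.4 in KEAP1 KO CM and 7.04, 8.7 and 2.97 in NRF2 KO CM. These groups did not overlap either, and the 4 differences were closer to each other, at -1.01 in control media, -0.97 in WT CM, -1.26 in KEAP1 KO CM and -1.26 in NRF2 KO CM, and all passed the threshold.

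Bub1, a kinase of the spindle checkpoint, was at 5.31, 5.16 and 6.29 TPM in control media, 6.76, 9.1 and 4.87 in WT CM, 11, 12.5 and 9.27 in KEAP1 KO CM and 7.34, 8.61 and 10.2 in NRF2 KO CM with vehicle. With CDDO-Me it was at 2.86, 2.77 and 2.12 TPM in control media, 0.328, 0.818 and 0.636 in WT CM, 0.885, 1.1 and 0.815 in KEAP1 KO CM and 2.39, 2.49 and 6.65 in NRF2 KO CM. WT/CDDO-Me libraries were all under 1 TPM, where the pseudocount holds the difference down, and NRF2 KO/CDDO-Me replicate 3 reached the range of the vehicle libraries after scaling. Its difference was -2.24 (SE 0.26, adjusted p = 1.2e-06) in WT CM, -2.51 (SE 0.26, adjusted p = 2.83e-07) in KEAP1 KO CM, -1.07 (SE 0.26, adjusted p = 0.0111) in NRF2 KO CM and -0.86 (SE 0.26, adjusted p = 0.0583) in control media. Plk1, the kinase of mitotic entry and exit, was at 9.15, 8.91 and 11.9 TPM in control media, 10.6, 12.7 and 8.92 in WT CM, 16.8, 21 and 14.7 in KEAP1 KO CM and 14.1, 16.2 and 15 in NRF2 KO CM with vehicle. CDDO-Me values of Plk1 were 6.15, 8.17 and 5.12 TPM in control media, 0.975, 1.81 and 1.22 in WT CM, 2.25, 3.2 and 2.19 in KEAP1 KO CM and 6.74, 8.56 and 1.65 in NRF2 KO CM. The groups did not overlap in any medium, although in control media the gap was under 1 TPM. The difference was -2.26 (SE 0.29, adjusted p = 4.76e-06) in WT CM, -2.24 (SE 0.29, adjusted p = 5.17e-06) in KEAP1 KO CM, -1.44 (SE 0.29, adjusted p = 0.0026) in NRF2 KO CM and -0.54 (SE 0.29, adjusted p = 0.404) in control media. Aurka, Bub1b and Ube2c, which act in spindle assembly, the checkpoint and the APC/C, had differences from -2.84 (Ube2c) to -1.30 (Aurka) in WT CM, from -2.35 (Ube2c) to -1.41 (Aurka) in KEAP1 KO CM and from -1.47 (Ube2c) to -1.04 (Aurka) in NRF2 KO CM. Cdc20, an activator of the APC/C, was the 1 gene of this role that did not pass in NRF2 KO CM, with a difference of -1.01 (SE 0.33, adjusted p = 0.0624), and it passed with the block (adjusted p = 0.0221).

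Of the 11 kinetochore, spindle and chromosome genes, 10 were lower in WT CM, 11 in KEAP1 KO CM, 9 in NRF2 KO CM and 4 in control media. Mki67, the marker protein of dividing cells, was at 8.51, 10.05 and 11.7 TPM in control media, 14.1, 15.7 and 11.1 in WT CM, 18.3, 24.1 and 14.3 in KEAP1 KO CM and 9.98, 13.2 and 35.1 in NRF2 KO CM with vehicle. CDDO-Me libraries had values of 3.14, 3.83 and 3.08 TPM in control media, 0.993, 1.54 and 1.55 in WT CM, 1.97, 1.59 and 1.66 in KEAP1 KO CM and 2.92, 3.5 and 3.86 in NRF2 KO CM. NRF2 KO/vehicle replicate 3 was more than 10 TPM above any other library, and all vehicle libraries were above all CDDO-Me libraries. Its difference was -1.32 (SE 0.31, adjusted p = 0.0107) in control media, -2.55 (SE 0.31, adjusted p = 1.76e-06) in WT CM, -2.71 (SE 0.31, adjusted p = 8.39e-07) in KEAP1 KO CM and -1.98 (SE 0.31, adjusted p = 0.000197) in NRF2 KO CM. Kif23, a kinesin of the central spindle, was at 18.7, 14.8 and 19.5 TPM in control media, 17.5, 19.7 and 13.8 in WT CM, 21.9, 23 and 18.3 in KEAP1 KO CM and 19.3, 23.2 and 37.2 in NRF2 KO CM with vehicle. Kif23 stood at 4.8, 7.53 and 5.43 TPM in control media, 2.11, 4.36 and 2.61 in WT CM, 3.21, 4.15 and 3.15 in KEAP1 KO CM and 5.39, 8.73 and 8.42 in NRF2 KO CM with CDDO-Me. It had the most negative difference of the 46 genes in control media on this scale, -1.42 (SE 0.24, adjusted p = 0.000716), with -2.09 in WT CM, -2.15 in KEAP1 KO CM and -1.63 in NRF2 KO CM, all past the threshold and without overlap.

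Nusap1, which bundles spindle microtubules, was at 5.93, 6.52 and 7.03 TPM in control media, 10.3, 10.7 and 6.55 in WT CM, 13, 16.3 and 9.69 in KEAP1 KO CM and 8.12, 8.44 and 24.6 in NRF2 KO CM with vehicle. Levels with CDDO-Me were 4.3, 3.22 and 2.16 TPM in control media, 0.512, 1.46 and 0.79 in WT CM, 1.43, 1.38 and 1.07 in KEAP1 KO CM and 3.56, 3.73 and 2.09 in NRF2 KO CM. Again every vehicle library was above every CDDO-Me library of its medium. The difference was -2.35 (SE 0.32, adjusted p = 9.42e-06) in WT CM, -2.47 (SE 0.32, adjusted p = 5.1e-06) in KEAP1 KO CM, -1.65 (SE 0.32, adjusted p = 0.00178) in NRF2 KO CM and -0.84 (SE 0.32, adjusted p = 0.162) in control media. Top2a, the topoisomerase that separates sister chromosomes, was at 32.6, 35.9 and 35.2 TPM in control media, 43.9, 50.4 and 31 in WT CM, 56.2, 75.3 and 40.4 in KEAP1 KO CM and 40.9, 50.3 and 53.7 in NRF2 KO CM with vehicle. Top2a in the CDDO-Me libraries was at 16.6, 19.6 and 14.6 TPM in control media, 22, 27 and 25.8 in WT CM, 20.4, 27.6 and 22.5 in KEAP1 KO CM and 13.4, 18.5 and 5.71 in NRF2 KO CM. Its groups did not overlap in any medium, but the gap was smallest in WT CM and largest in NRF2 KO CM. Top2a was lower in control media, at -0.98 (SE 0.26, adjusted p = 0.0262), in KEAP1 KO CM, at -1.05 (SE 0.26, adjusted p = 0.0036), and in NRF2 KO CM, at -1.95 (SE 0.26, adjusted p = 3.52e-05), while the difference in WT CM was -0.57 (SE 0.26, adjusted p = 0.115). The control media call was lost without media/CDDO-Me replicate 1 or 3 or media/vehicle replicate 1, 2 or 3 (adjusted p of 0.0673 to 0.0983). The other 7 genes of the role (Cenpa, Cenpe and Cenpf of the centromere and kinetochore, and Kif11, Kif20a, Tpx2 and Prc1 of the spindle) had differences from -2.47 (Cenpa) to -1.21 (Cenpf) in WT CM, from -2.40 (Cenpa) to -1.19 (Cenpe) in KEAP1 KO CM, from -1.67 (Kif11) to -0.81 (Cenpa) in NRF2 KO CM and from -0.94 (Kif11) to -0.20 (Cenpf) in control media. Of these 7, Cenpe and Kif20a did not pass in NRF2 KO CM, where Kif20a passed with the block (adjusted p = 0.0173), and Kif11 alone passed in control media.

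Of the 4 transcription factors, 2 were lower in WT CM, 4 in KEAP1 KO CM, 3 in NRF2 KO CM and 0 in control media. Foxm1, which drives mitotic genes, was at 11.2, 10.2 and 16.3 TPM in control media, 13.3, 17.9 and 10.8 in WT CM, 19.8, 26.8 and 15.7 in KEAP1 KO CM and 14.4, 15.7 and 12.2 in NRF2 KO CM with vehicle. The CDDO-Me libraries held 6.69, 8.12 and 6.03 TPM in control media, 1.31, 2.73 and 1.26 in WT CM, 2.01, 4.33 and 2.53 in KEAP1 KO CM and 6.54, 6.21 and 4.21 in NRF2 KO CM. No group overlapped with its control, and the difference was -2.37 (SE 0.23, adjusted p = 1.35e-07) in WT CM, -2.33 (SE 0.23, adjusted p = 1.76e-07) in KEAP1 KO CM, -1.16 (SE 0.23, adjusted p = 0.00243) in NRF2 KO CM and -0.74 (SE 0.23, adjusted p = 0.073) in control media. Mybl2 (B-Myb), which joins the MuvB complex that binds CHR elements, was at 3.89, 3.3 and 6.32 TPM in control media, 5.66, 8.79 and 4.11 in WT CM, 6.58, 8.06 and 6.6 in KEAP1 KO CM and 4.58, 5.16 and 5.32 in NRF2 KO CM with vehicle. CDDO-Me libraries held 2.29, 1.35 and 2.14 TPM in control media, 1.07, 2.71 and 2.62 in WT CM, 1.85, 1.64 and 1.88 in KEAP1 KO CM and 1.67, 1.69 and 0.507 in NRF2 KO CM. All CDDO-Me values were under 3 TPM and all vehicle values above it. The difference was -1.11 in WT CM, -1.40 in KEAP1 KO CM and -1.42 in NRF2 KO CM, each past the threshold, and -0.86 (SE 0.27, adjusted p = 0.0643) in control media. E2f8, a repressor that E2F activators induce, was at 4.38, 4.17 and 6.72 TPM in control media, 5.53, 7.06 and 4.54 in WT CM, 8.5, 10.2 and 6.79 in KEAP1 KO CM and 5.17, 6.53 and 11 in NRF2 KO CM with vehicle. In CDDO-Me libraries the values were 2.75, 1.96 and 4.71 TPM in control media, 3.3, 2.47 and 6.42 in WT CM, 2.63, 2.62 and 5.39 in KEAP1 KO CM and 1.96, 1.96 and 3.58 in NRF2 KO CM. Replicate 3 was the highest CDDO-Me library in all 4 media, and the groups overlapped in control media and WT CM. E2f8 was lower in KEAP1 KO CM, at -0.96 (SE 0.35, adjusted p = 0.0455), and in NRF2 KO CM, at -1.23 (SE 0.35, adjusted p = 0.0291), and differed by -0.36 (SE 0.35, adjusted p = 0.528) in WT CM. The E2f8 calls were lost without KEAP1 KO/CDDO-Me replicate 1 or 2 or KEAP1 KO/vehicle replicate 1, 2 or 3 (adjusted p of 0.0536 to 0.163), and without NRF2 KO/CDDO-Me replicate 1 or 2 or NRF2 KO/vehicle replicate 3 (adjusted p of 0.101 to 0.114). E2f1, an activator of S phase genes, was lower in KEAP1 KO CM, at -0.44 (SE 0.14, adjusted p = 0.0235), and differed by -0.30, -0.05 and -0.42 in WT CM, NRF2 KO CM and control media without passing. Its call was lost without KEAP1 KO/CDDO-Me replicate 1 or 2 or KEAP1 KO/vehicle replicate 1 or 2 (adjusted p of 0.0615 to 0.0837), and with the block it passed in control media (adjusted p = 0.037).

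The CDK inhibitors moved apart. Cdkn1a (p21), which blocks CDKs of G1 and S phase, was at 133, 159 and 123 TPM in control media, 206, 237 and 169 in WT CM, 194, 235 and 187 in KEAP1 KO CM and 138, 173 and 109 in NRF2 KO CM with vehicle. Values after CDDO-Me were 216, 272 and 171 TPM in control media, 291, 338 and 258 in WT CM, 466, 346 and 246 in KEAP1 KO CM and 258, 291 and 143 in NRF2 KO CM. Every CDDO-Me library was above every vehicle library in control media, WT CM and KEAP1 KO CM, and replicate 3 made the groups overlap in NRF2 KO CM. Its rise was 0.67 (SE 0.22, adjusted p = 0.0267) in WT CM, 0.91 (SE 0.22, adjusted p = 0.00321) in KEAP1 KO CM and 0.71 (SE 0.22, adjusted p = 0.0458) in NRF2 KO CM, and the difference in control media was 0.67 (SE 0.22, adjusted p = 0.0855), or 0.00447 as the adjusted p with the block. The rise was not called without WT/CDDO-Me replicate 1 or 2 or WT/vehicle replicate 1 or 3 (adjusted p of 0.0659 to 0.113), nor without NRF2 KO/CDDO-Me replicate 1 or 2 or NRF2 KO/vehicle replicate 1 or 3 (adjusted p of 0.0856 to 0.197). Without scaling of the libraries the rise in WT CM did not pass (adjusted p = 0.133). Cdkn2c (p18), an inhibitor of CDK4 and CDK6, was at 24.3, 22 and 25.3 TPM in control media, 24.5, 24.6 and 22.5 in WT CM, 31.8, 31.4 and 27.2 in KEAP1 KO CM and 25.7, 23.7 and 21.6 in NRF2 KO CM with vehicle. Cdkn2c had 16.8, 19.8 and 16.6 TPM in control media, 10.7, 8.93 and 13.1 in WT CM, 10.2, 10.3 and 12.5 in KEAP1 KO CM and 18.4, 19 and 26.4 in NRF2 KO CM with CDDO-Me. It was lower in WT CM, at -0.95 (SE 0.16, adjusted p = 9.59e-05), and in KEAP1 KO CM, at -1.21 (SE 0.16, adjusted p = 5.52e-06), with no overlap, and the groups overlapped in NRF2 KO CM, where the difference was -0.13 (SE 0.16, adjusted p = 0.742).

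Whether CM changed the response to CDDO-Me was tested by interaction contrasts. For 20 of the 46 genes CDDO-Me lowered the level more in WT CM than in control media, and for 0 genes less, where 6.73% of all genes tested were called in the lower direction. By role they were 3 of the 10 licensing and fork genes, 3 of the 4 of nucleotide supply, 3 of the 7 cyclins and CDKs, 5 of the 8 mitotic kinase, checkpoint and APC/C genes, 5 of the 11 kinetochore, spindle and chromosome genes, 1 of the 4 transcription factors and 0 of the 2 CDK inhibitors. Rrm2 differed by -2.21 (SE 0.39, adjusted p = 0.000336), since it was lower in WT CM and had a difference of 0.05 in control media. Ube2c, the E2 enzyme of the APC/C, was at 36.1, 41.7 and 23.9 TPM in WT/vehicle and 1.95, 5.43 and 3.68 TPM in WT/CDDO-Me BMDMs. In control media Ube2c was at 28, 26.4 and 35.1 TPM with vehicle and 17.8, 23.3 and 15.4 TPM with CDDO-Me. The CDDO-Me libraries were below the vehicle libraries in both media, and the interaction was -2.21 (SE 0.49, adjusted p = 0.00316). Cenpa, the histone of centromeres, was at 49.8, 49.8 and 64.2 TPM in WT/vehicle and 8.69, 7.44 and 8.56 TPM in WT/CDDO-Me BMDMs. Its level was 38.9, 38.4 and 64.6 TPM in media/vehicle and 25.6, 32.9 and 35 TPM in media/CDDO-Me BMDMs. Cenpa gave an interaction of -1.93 (SE 0.32, adjusted p = 0.000189), and Ccnb2 -1.85 (SE 0.45, adjusted p = 0.00695). Of the 20 genes, 14 stayed called whichever single library was left out. The other 6 were Mcm7, lost without WT/vehicle replicate 2 (adjusted p = 0.054), and Cdc20, Mcm4, Kif11, Mcm6 and Nusap1, lost without any of 2, 5, 7, 8 and 8 of the 12 libraries in turn, with adjusted p of 0.0503 to 0.0879. For this interaction 31 genes were called without the 2 NRF2 KO libraries with few genes, which enter only through the shared estimate of the spread. In that fit 28.6% of all genes tested were called. Of the replication genes, Mcm4, Mcm6 and Mcm7 passed with all libraries in the fit, with interactions of -0.65, -0.71 and -0.91. They are 3 of the 6 calls lost when some single library was left out. Aurkb, Ccne1, Pcna and Cdkn1a had interactions of 0.04, 0.19, 0.30 and 0.00, with 95% intervals of -0.77 to 0.84, -0.43 to 0.81, -0.27 to 0.88 and -0.65 to 0.65.

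The response in KEAP1 KO CM was not shown to differ from that in WT CM. For this interaction limma called 0 of 46 genes, 0 of them had an unadjusted p under 0.05, and 0% of all genes were called, with 224 of 13661 (1.64%) under an unadjusted p of 0.05. The median interaction of the 46 genes was -0.15, the most negative was -0.84 (SE 0.53, adjusted p = 1) for Ccne2, and every alternative setting also gave 0 genes. The count of 8 genes lower in WT CM and not called in NRF2 KO CM (Cdc20, Cdkn2c, Cenpe, Gins2, Kif20a, Rrm1, Rrm2 and Tyms) and of 4 lower in NRF2 KO CM and not called in WT CM (Cdc6, E2f8, Pcna and Top2a) says nothing of a difference by itself, so it was tested too, and Cdc20, Kif20a and Rrm1 were called in NRF2 KO CM with the block. Between WT CM and NRF2 KO CM, 8 genes were lowered more in WT CM and 1 was lowered less, where 5.81% and 7.61% of all genes were called in these directions. Cenpa was at 47.5, 44.2 and 38.6 TPM in NRF2 KO/vehicle and 26.1, 33.1 and 15.4 TPM in NRF2 KO/CDDO-Me BMDMs, and its interaction was -1.66 (SE 0.32, adjusted p = 0.000904). Rrm2 and Tyms, whose values stand above, had interactions of -1.54 (SE 0.39, adjusted p = 0.00911) and -1.34 (SE 0.29, adjusted p = 0.00315). Top2a alone went the other way, with 1.38 (SE 0.36, adjusted p = 0.0134), its difference being -1.95 in NRF2 KO CM and -0.57 in WT CM. Birc5, Bub1, Ccnb1, Foxm1 and Cdkn2c also passed, with interactions of -1.28, -1.18, -1.17, -1.21 and -0.82. Of the 9 calls 5 were kept whichever single library was left out and 2 under every alternative. Bub1 was lost without any of 7 of the 12 libraries and Ccnb1 without any of 8, with adjusted p of up to 0.113 and 0.127, Foxm1 without WT/CDDO-Me replicate 3 or WT/vehicle replicate 2 (adjusted p of 0.0508 to 0.0564), and Cdkn2c without WT/CDDO-Me replicate 2 (adjusted p = 0.053). Without the 2 NRF2 KO libraries with few genes, 22 genes were called, 21 lowered more in WT CM, and the Top2a interaction was 0.84 (SE 0.28, adjusted p = 0.0411) while that of Rrm2 was -1.97 (SE 0.27, adjusted p = 3.19e-05). That fit called 21.2% of all genes tested for this interaction. In a fit of the compared groups alone 3 genes were called, with adjusted p of 0.0701 for Rrm2 and 0.0794 for Top2a.

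**Figure D4:**
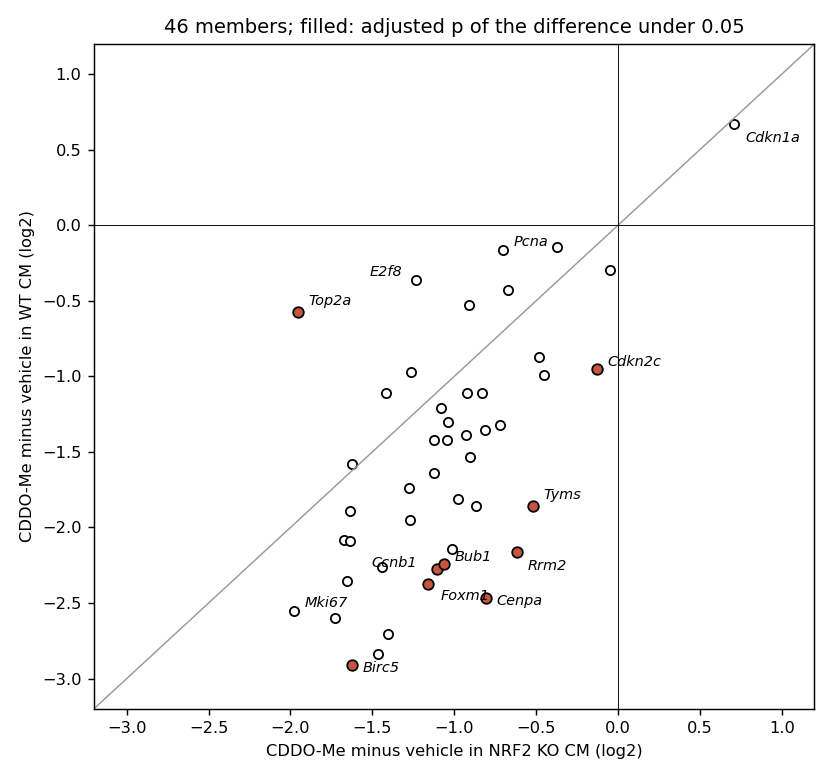
Each point is 1 of the 46 genes, placed by the log2 difference of CDDO-Me from vehicle in NRF2 KO CM (horizontal axis) and in WT CM (vertical axis), with a line of equal values, and filled points are the 9 genes for which the difference between the media passed the threshold. Top2a lies above the line at -1.95 and -0.57, and Cenpa, Rrm2 and Tyms lie below it.

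With vehicle, the media were compared with each other. Comparisons with control media set medium conditioned by cancer cells against medium kept without them, so they do not isolate the genotype. Only comparisons between CM bear on the cancer cell genotype, and other differences between the cell lines cannot be told apart from the edit. In WT/vehicle against media/vehicle BMDMs limma called 0 of 46 genes, where 7.23% of all genes tested were called in either direction. Of the differences 41 were positive, 3 had an unadjusted p under 0.05 (17.9% of all genes tested did), 5 genes did not overlap between the groups (34.9% of all genes did not), and the median was 0.23. WT/vehicle replicate 3 was lower than the other WT/vehicle libraries, with a median of the 46 genes of 3.97 against 4.34 and 4.59. With the replicate number as a block, which was paired here, 2 genes, Mcm3 and Cdkn1a, were higher, and with array weights or without all replicate 3 libraries 18 were higher. Of all genes tested, the block called 12.8%, array weights 30.1% and the fit without replicate 3 libraries 23.2%, in either direction. Without scaling, 48.2% of the called genes were higher in this comparison and 44.2% in WT/vehicle against NRF2 KO/vehicle BMDMs, against 60.6% and 64.5% with scaling.

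KEAP1 KO/vehicle BMDMs had 5 genes higher than media/vehicle BMDMs and 0 lower, and 4.87% of all genes were called higher. They were Mcm3 by 0.65 (SE 0.18, adjusted p = 0.0265), Mcm4 by 0.48 (SE 0.14, adjusted p = 0.0332), Rrm1 by 0.57 (SE 0.15, adjusted p = 0.0245), Tyms by 0.76 (SE 0.21, adjusted p = 0.0261) and Ccne1 by 0.73 (SE 0.21, adjusted p = 0.0365). Mcm3 was at 32.5, 34.6 and 32.9 TPM in media/vehicle and 57.4, 62.4 and 41.5 TPM in KEAP1 KO/vehicle BMDMs. Mcm4 was at 18.4, 19.9 and 19.8 TPM and 27.6, 33.3 and 22.2 TPM in the same groups. Ccne1 was at 7.2, 6.76 and 9.59 TPM and 13.4, 15.8 and 11.7 TPM. In each case KEAP1 KO/vehicle replicate 3 was the lowest of its group and still above every media/vehicle library. The groups did not overlap for 36 of the 46 genes (36.3% of all genes did not). Of the other 41 genes, 40 had positive differences, 31 of the 46 had an unadjusted p under 0.05 (19% of all genes tested did), and the median of the 46 was 0.64. Leaving out 1 library changed the count, to 0 without KEAP1 KO/vehicle replicate 1 or 2 or media/vehicle replicate 1 or 2. It was 3 without media/vehicle replicate 3 and 9 without KEAP1 KO/vehicle replicate 3. Without all replicate 3 libraries it was 39, in a fit that called 25.7% of all genes tested. Each of the 5 calls was lost in at least 1 of these fits. The replicate block called 12 genes, all higher, and 13.1% of all genes tested. This comparison was not shown to be paired, with r of 0.0968, 0.234 and 0.4 in its same-numbered pairs. Epithelial markers, with Krt8 and Krt18 at 0 in media/vehicle and Epcam at 0 in KEAP1 KO/vehicle, summed to 1.55, 1.96 and 2.49 TPM (lowest, median and highest) and to 8.76, 9.13 and 9.23 TPM in these groups, and stromal sums overlapped. Endothelial sums were 7.51, 8.77 and 10.3 TPM in media/vehicle and 17.3, 17.96 and 29.9 TPM in KEAP1 KO/vehicle BMDMs, with Pecam1 higher by 2.38 and Kdr lower, at -0.84. Macrophage sums were 22398, 22863 and 22981 TPM and 16893, 18864 and 20730 TPM, with 0 of 8 markers higher and 2 lower (Fcgr1 at -0.86 and Mertk at -0.50), and Kit was lower, at -1.41. Neither the cells that gave these marker RNAs nor their part in the difference was tested.

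Against WT/vehicle BMDMs directly, KEAP1 KO/vehicle BMDMs had 0 of 46 genes called, and 0% of all genes tested were called. By unadjusted p under 0.05, limma gave 6 of the 46 and 350 of 13661 genes (2.56%). The difference was positive for 44 of the 46, with a median of 0.40, and 14 did not overlap between the groups (12.3% of all genes did not). Within same-numbered libraries, 39 of the 46 genes were higher with KEAP1 KO CM in all 3 pairs, and 20.1% of all genes tested were. The median difference of the 46 genes was 0.34, 0.35 and 0.43 in these pairs. Genes of 1 process measured in the same libraries are not independent. Here and elsewhere, counts among the 46 genes are therefore not counts of replicates. Ccne2 had the largest of these differences, at 0.80 (SE 0.38, adjusted p = 1), with a 95% interval of 0.02 to 1.59, and Mki67 differed by 0.36 (SE 0.31, adjusted p = 1). Array weights gave 19 genes, all higher, and the replicate block gave 0. Over all genes tested, these fits called 7.14% and 0.0146%.

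NRF2 KO/vehicle and media/vehicle BMDMs had 0 of 46 genes called by limma (0.00732% of all genes tested were), with 34 positive differences and 10 genes at an unadjusted p under 0.05 (12.1% of all genes tested were), and 0 genes under every alternative. In this group replicate 3 stood apart in both directions, with 35.1 TPM of Mki67 against 9.98 and 13.2 TPM, and 13 TPM of Mcm5 against 28.4 and 31.4 TPM. Between WT/vehicle and NRF2 KO/vehicle BMDMs 1 gene, E2f1, was higher with WT CM, where 6.84% of all genes were called higher. E2f1 was at 31.5, 31.1 and 24.6 TPM with WT CM and 23.4, 25.7 and 14.3 TPM with NRF2 KO CM, a difference of 0.54 (SE 0.14, adjusted p = 0.0193). The 2 groups overlapped in TPM and did not after scaling, and the call was lost without NRF2 KO/vehicle replicate 3, without WT/vehicle replicate 1 or 2, and without scaling. In all, 8 of the 46 genes had an unadjusted p under 0.05 in this comparison (27.5% of all genes tested did), and 21 differences were positive.

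**Figure D5:**
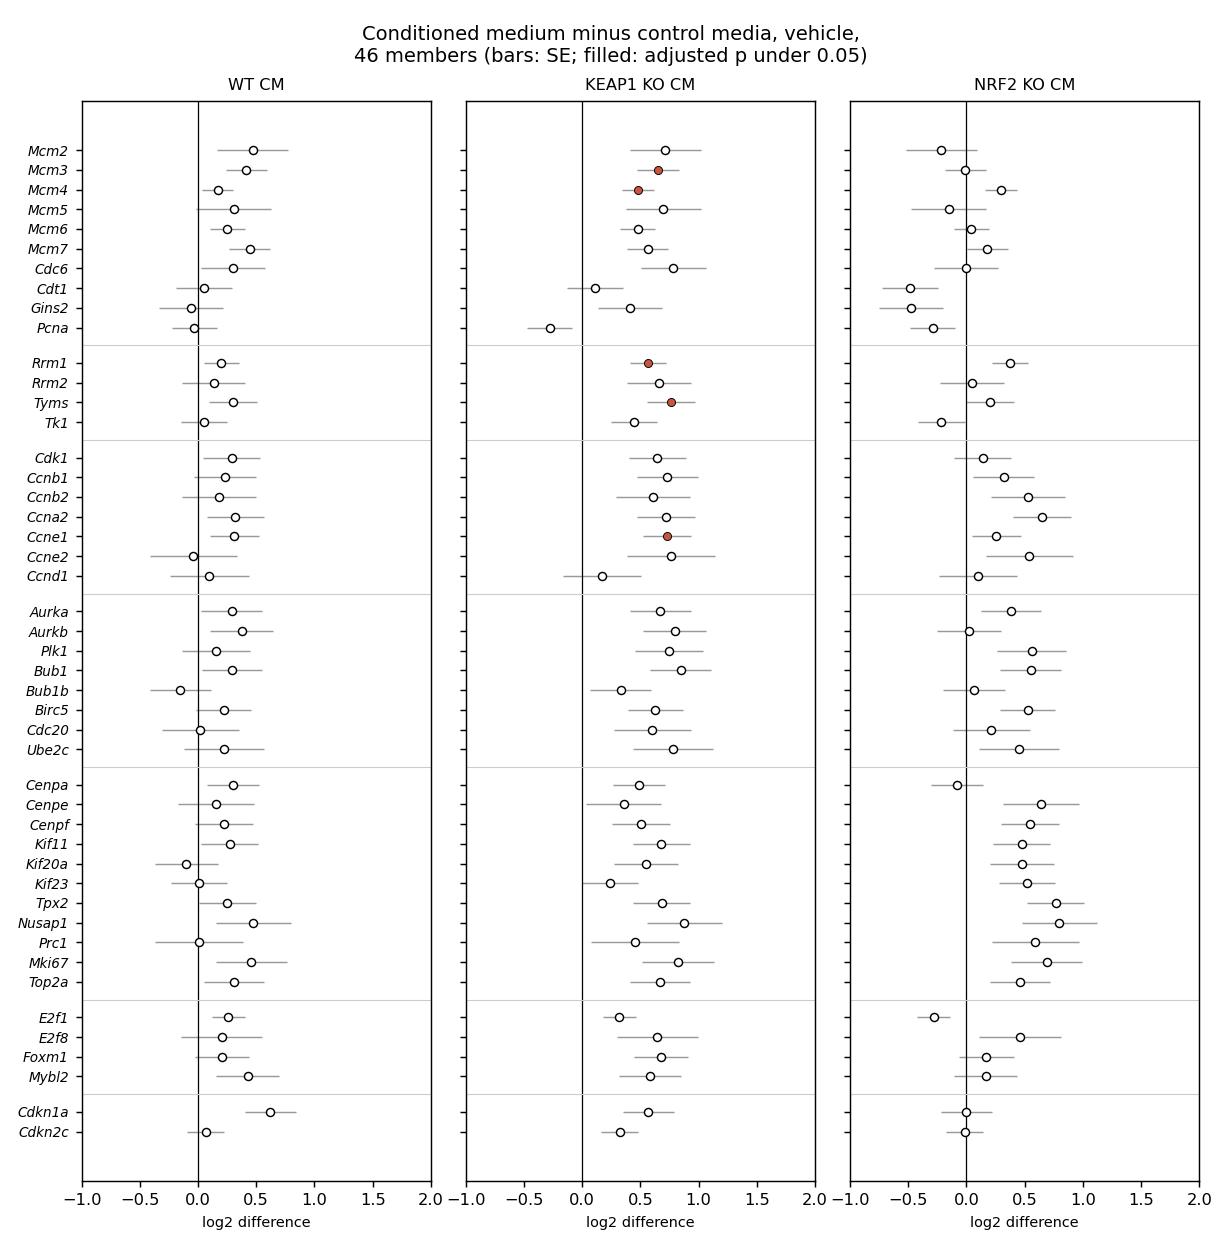
Each panel plots 1 comparison of media with vehicle and each row 1 of the 46 genes, with the log2 difference on the horizontal axis, its standard error as a bar and filled points for an adjusted p under 0.05. The 5 filled points in KEAP1 KO CM against control media are Mcm3, Mcm4, Rrm1, Tyms and Ccne1, and the panels of WT CM and NRF2 KO CM have none.

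The groups with CM and CDDO-Me together were also set against media/vehicle BMDMs, the group with neither, which shares its libraries with the comparisons above. In WT/CDDO-Me BMDMs 36 genes were lower and 1 higher (12.2% and 14.6% of all genes), in KEAP1 KO/CDDO-Me BMDMs 37 and 1 (11.9% and 14%), and in NRF2 KO/CDDO-Me BMDMs 22 and 1 (5.39% and 4.8%). Cdkn1a was the higher gene each time, by 1.29 (SE 0.22, adjusted p = 0.000125), 1.47 (SE 0.22, adjusted p = 2.91e-05) and 0.71 (SE 0.22, adjusted p = 0.0439), the last lost without NRF2 KO/CDDO-Me replicate 1 or 2 or media/vehicle replicate 1, 2 or 3 (adjusted p of 0.058 to 0.16). The median differences of the 46 genes were -1.41, -1.25 and -0.88. Birc5 had log2 differences of -2.69, -2.15 and -1.10, and Mcm5 of -1.58, -1.69 and -1.79, all past the threshold. Ccnd1 differed by -0.33, -0.42 and -0.57 and did not pass, while with the block, where paired, it passed for KEAP1 KO/CDDO-Me and NRF2 KO/CDDO-Me BMDMs (adjusted p = 0.0229 and 0.00783). Without scaling, the share of all called genes that were higher was 33.9% for WT/CDDO-Me and 37.0% for KEAP1 KO/CDDO-Me BMDMs, against 54.6% and 53.9% with scaling.

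Genes of the same pathways outside the 46 were counted in the same fits. Of 31 other replication genes, 9 were lower with CDDO-Me in control media, 19 in WT CM, 25 in KEAP1 KO CM and 17 in NRF2 KO CM, and 0 were higher. Over all genes tested, 2.8%, 13.4%, 14.3% and 4.74% were lower in these media. Uhrf1, which helps to copy DNA methylation onto new strands, had differences of -1.21, -2.32, -2.47 and -1.86 in these media, each past the threshold. Of 38 other mitotic genes, 10, 35, 36 and 30 were lower in the same order. Stmn1, which destabilises microtubules, had differences of -1.02, -2.78, -2.83 and -1.53, each past the threshold. Pttg1 (securin) was the exception, higher in WT CM by 0.43 and in KEAP1 KO CM by 0.55. The medians of the replication list were -0.54, -0.84, -1.11 and -0.63 and those of the mitotic list -0.64, -1.54, -1.63 and -1.10. With KEAP1 KO CM and vehicle, compared with control media, 8 of the replication genes and 8 of the mitotic genes were higher and 0 lower, where 4.87% of all genes tested were higher, among them Dut, which clears dUTP, by 1.08 and Hmmr, a spindle protein, by 0.68.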

How the data were processed

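RNA from 24 BMDM libraries, 3 in each of 8 groups taken from the sample labels, was analysed. Per the labels, poly-A libraries were made by Novogene, and the submitters' processing notes name Kallisto and GRCm39. The authors deposited a table of 35770 gene names described as length-scaled counts, but every library sums to 999365 to 999801, so the deposited values were treated as TPM. TPM keep no read counts and the sources used here give no depth for each library, so intervals or floors based on reads are not given. A line without a gene name (0.0199 to 0.0635% of the TPM per library) was left out, all sample columns were used (0 were not), and the table held no comparisons of the authors.

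Libraries were scaled by the trimmed mean of M values (30% trimmed on M, 5% on A) before a pseudocount of 1 was added and log2 was taken. The test covered the 13661 genes that exceeded 1 TPM in 3 or more of the 24 libraries. limma 3.58.1 in R 4.3.3 was fitted to all 8 groups with eBayes and a trend on the mean level (16 residual degrees of freedom), and 15 comparisons were read from that fit. Two-sided p-values were corrected across all genes tested (Benjamini-Hochberg), with a threshold of 0.05. Overlap between groups was read on the scaled values. The fit was tested on simulated data with independent noise and, for each gene, the same spread in all groups. Those data had no replicate effect, no correlated genes and no library that stood apart, so that test does not cover such features. Figures were drawn with Python 3.11.15 and matplotlib 3.10.9, and promoters were taken from RefSeq on GRCm38.p6, an earlier build than that of the transcripts.

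Values per library are given for up to 4 genes of each role with the largest difference in any comparison of CDDO-Me with vehicle or of media, and for Mki67, Top2a, Cdk1, Pcna, Ccnd1, Cdkn1a and Cdkn2c. Up to 4 genes are named per interaction, and from further lists up to 3 in each direction that passed without overlap. Other genes of the 46 that are named were chosen after their values were seen. The 46 genes and the lists were chosen with earlier results of these data known.

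The library names carry the same set of numbers in every group, but nothing in the labels says that these or the replicate numbers mark a shared culture. Deviations from the group means correlated with r above 0.1 in all 3 same-numbered pairs for CDDO-Me against vehicle in control media and in NRF2 KO CM, for WT/vehicle against media/vehicle and against KEAP1 KO/vehicle, and for KEAP1 KO CM and NRF2 KO CM with CDDO-Me against media/vehicle. In the other comparisons at least 1 pair was at or under 0.1. A comparison is called paired here only where it met this rule, and the cut of 0.1 was not set against values expected without pairing. The block was fitted over all 24 libraries at once, so it does not show pairing for a single comparison. Alternatives were RLE or no scaling, no filter or TPM above 5, a pseudocount of 0.1, no trend, array weights, a replicate block, the compared groups alone, each library left out, and, added after the data were seen, the 2 NRF2 KO libraries with few genes or all replicate 3 libraries left out.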

Additional observations from a re-analysis of the deposited data

Results flagged for a closer look

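The results here stood out because the effect of CDDO-Me differed between media by a test of the difference itself, with limma's moderated test over all 13661 genes. Between WT CM and control media, 20 of the 46 genes passed, all lowered more in WT CM, where 6.73% of all genes tested were called in that direction. The 4 genes with the largest difference were Rrm2 at -2.21 (adjusted p = 0.000336), Ube2c at -2.21 (adjusted p = 0.00316), Cenpa at -1.93 (adjusted p = 0.000189) and Ccnb2 at -1.85 (adjusted p = 0.00695), all on the log2(scaled TPM + 1) scale. Between WT CM and NRF2 KO CM, 9 of the 46 passed, 8 lowered more in WT CM and 1 less, where 5.81% and 7.61% of all genes tested were called in these directions. Cenpa was lowered more in WT CM by an interaction of -1.66 (adjusted p = 0.000904), Rrm2 by -1.54 (adjusted p = 0.00911) and Tyms by -1.34 (adjusted p = 0.00315). Top2a was lowered less in WT CM, at 1.38 (adjusted p = 0.0134). In a fit of the compared groups alone 3 of the 46 were called between these media, and Rrm2 and Top2a were not (adjusted p of 0.0701 and 0.0794). Single libraries were not tested as outliers in groups of 3.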

How the results depend on the processing

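Among 263 calls of the 46 genes over the 15 comparisons, 4640 values were recomputed under the alternatives, of which 4312 kept their direction and stayed past the threshold, 328 kept their direction and lost the call, and 0 reversed. The counts for CDDO-Me in WT CM (39), in KEAP1 KO CM (44), and for WT and KEAP1 KO CM with CDDO-Me against media/vehicle (37 and 38) stayed within 1.5 times of these values throughout.

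In control media the count of 12 was 6 with no filter, 38 with array weights, 29 with the compared groups alone, 28 without the 2 NRF2 KO libraries, 27 without replicate 3 libraries, and 5 to 8 with single libraries left out. Array weights called 25.8% of all genes tested there, and the fits without the 2 NRF2 KO libraries and without replicate 3 libraries 14.9% and 18.1%. In NRF2 KO CM the 35 calls became 0 with the compared groups alone. For WT CM with vehicle the 0 calls became 18 with array weights, 1 with the compared groups alone, 3 without the 2 NRF2 KO libraries and 18 without replicate 3 libraries. The share of all genes called was 30.1% with array weights, 19.1% without the 2 NRF2 KO libraries and 23.2% without replicate 3 libraries. For KEAP1 KO CM the 5 calls became 3 with no scaling, 41 with array weights, 30 with the compared groups alone, 32 without the 2 NRF2 KO libraries, 39 without replicate 3 libraries and 0 to 9 with single libraries left out. Among all genes, 36.7%, 21.3% and 25.7% were called with array weights, without the 2 NRF2 KO libraries and without replicate 3 libraries. Array weights gave 19 genes for KEAP1 KO CM against WT CM, with 7.14% of all genes called. For WT CM against NRF2 KO CM the 1 call became 0 with no scaling or with the compared groups alone, 4 with array weights, 5 without replicate 3 libraries and 0 to 3 with single libraries left out. For all genes the share called was 24.9% with array weights and 20.7% without replicate 3 libraries. For NRF2 KO CM with CDDO-Me against media/vehicle the 23 calls became 15 with the compared groups alone and 15 to 25 with single libraries left out, the lowest without media/vehicle replicate 3. The interaction of WT CM with control media had 34 calls with array weights, 31 without the 2 NRF2 KO libraries and 32 without replicate 3 libraries. That of WT CM with NRF2 KO CM had 34 with array weights, 3 with the compared groups alone, 22 without the 2 NRF2 KO libraries, 30 without replicate 3 libraries, and 6 to 16 with single libraries left out, with 14 and 16 without replicate 3 of NRF2 KO/vehicle or of NRF2 KO/CDDO-Me. Shares of all genes called were 39.6%, 28.6% and 31.3% for the first interaction with array weights, without the 2 NRF2 KO libraries and without replicate 3 libraries. For the second they were 32.9%, 21.2% and 27.1%. The cause of these changes was not tested.

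With the replicate block, 21 genes were called for CDDO-Me in control media and 2 for WT CM with vehicle, and in comparisons not shown to be paired 12 for KEAP1 KO CM and 3 for WT CM against NRF2 KO CM. The replicate block ended none of the 263 calls. TPM keep no depth, so levels near 0 carry an unknown counting error.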

Other observations

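Of 23 regulators of G1 and of exit from the cycle outside the 46, 5 were higher and 4 lower in WT CM, 6 and 5 in KEAP1 KO CM, 1 and 2 in NRF2 KO CM, and 0 and 1 in control media. Over all genes tested 14.4% were higher and 13.4% lower in WT CM, 14.4% and 14.3% in KEAP1 KO CM, 4.87% and 4.74% in NRF2 KO CM, and 3.22% and 2.8% in control media, so the counts of this list were not far from those of all genes. In WT CM E2f2, an activator E2F, was higher by 1.72, Rbl1 (p107), a pocket protein that represses E2F targets, by 1.60 and Ccnd3, a D-type cyclin, by 1.36, all on the log2(scaled TPM + 1) scale. Rbl1 and Ccnd3 rose more in WT CM than in control media, with interactions of 1.68 (adjusted p = 0.000133) and 1.08 (adjusted p = 0.00771). Myc, a driver of growth, was lower with CDDO-Me in WT CM at -1.61 and in KEAP1 KO CM at -1.73, and differed by 0.03 (adjusted p = 0.995) in control media. With vehicle, Myc was higher than in control media by 1.03 in WT CM and by 1.06 in KEAP1 KO CM. Cdkn1c (p57), another CDK inhibitor, was lower with vehicle in both of these CM than in control media, at -2.34 and -3.10, and lower again with CDDO-Me in WT CM, at -2.57. Cdk6, a kinase of G1, was lower with CDDO-Me in control media at -1.49 (adjusted p = 5.91e-05) and in NRF2 KO CM at -1.10 (adjusted p = 0.000951), and its difference was -0.22 (adjusted p = 0.502) in WT CM.

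Cdkn1a is a known target of p53. Of 14 other p53 target genes that were tested, 2 were higher and 3 lower with CDDO-Me in control media and in WT CM, 3 and 3 in KEAP1 KO CM, and 2 and 2 in NRF2 KO CM. In WT CM and KEAP1 KO CM these counts were close to the shares over all genes given above. In control media and in NRF2 KO CM, where fewer of all genes were called, they were above those shares. Trp53inp1 and Zmat3 were higher in all 4 media, and Plk2 and Sesn1 were lower in all 4.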
